A study of Mus musculus with 12 samples.

Results

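The 40 genes described here carry out fatty acid oxidation and ketone body metabolism in the liver, or are known targets and partners of PPARα, and were chosen by name, with earlier results of these data known, from the 23420 rows of the count tables. They cover the carnitine shuttle (4 genes), the mitochondrial beta-oxidation spiral (9 genes), its auxiliary enzymes (5 genes), electron transfer from the spiral (3 genes), ketone bodies (2 genes), peroxisomal oxidation (8 genes), acyl-CoA thioesterases (6 genes) and 3 regulators or hormones. All 40 had a row in both tables, and 38 of them had enough counts to be tested in every comparison. The exceptions were Pdk4 and Fgf21. The study asked whether loss of the ubiquitin ligase SIAH2 alters gene expression in the liver, in livers harvested at zeitgeber time (ZT) 10, late in the light phase of a light-dark cycle, from mice of about 20 weeks. The 4 groups of 3 mice each, all C57BL/6 on normal chow, were profiled: wild type females (WTF), Siah2 KO females (KOF), wild type males (WTM) and Siah2 KO males (KOM). The Siah2 KO is a constitutive null in every tissue, and homozygous wild type and KO mice were kept as related lines after an intercross of heterozygotes, so the groups are not described as littermates. The study describes individual livers, whereas the sample labels say that RNA of 3 mice was pooled, so p-values measure only the spread between these samples, which may be technical.

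When glucose is scarce, liver cells take up fatty acids, pass them across the mitochondrial membranes as carnitine esters and shorten them in the beta-oxidation spiral, whose acetyl-CoA can be turned into ketone bodies for other organs. Very long and branched chains are shortened first in peroxisomes and then handed to mitochondria. Many of these genes are controlled by the fatty acid receptor PPARα, a nuclear receptor that binds DNA as a heterodimer with RXR, and by the coactivator PGC-1α, and the pathway is known to follow feeding, time of day and sex in rodents.

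Each library held between 1293688 and 4056144 reads on genes (median 2670270), and values are given as CPM, reads scaled to a common library total after TMM correction for library composition. The libraries tag the 3′ end with about 1 read per transcript, so CPM were not divided by transcript length. Shared sequence and GC content of the transcript ends, described below, were not corrected for. Levels therefore compare only roughly between genes. The 40 genes took between 0.915% and 1.38% of the reads of a library. The sex labels held in all 12 libraries, with Xist at 66.2 to 113 CPM in the females and at or under 0.868 CPM in the males. Siah2 itself was read at 9.63 to 12.5 CPM in KO females against 11.5 to 17 CPM in wild type females, and at 9.42 to 17.4 CPM in KO males against 16.8 to 27.1 CPM in wild type males. The ranges touch in both sexes, and the place of the deletion relative to the tagged 3′ end was not given in the sources used here. These tags do not check the genotype. Hepatocyte markers dominated every library (7 genes, 42849.5 to 86389.7 CPM summed). Endothelial markers (6 genes) summed to 263 to 330 CPM in the wild type females and 229 to 243 CPM in KO females, and Kupffer and immune markers (11 genes) to 525 to 717 CPM and 402 to 951 CPM. Fat markers (5 genes, 2 of them at 0 in both groups) summed to 49.4 to 55.2 CPM and 58.4 to 111 CPM. Nearly all of this was Fabp4 (47.5 to 54.1 CPM and 57.8 to 110 CPM), and Adipoq and Plin1 were at 0. Red blood cell markers (6 genes, 4 of them at 0) summed to 20.7 to 25.5 CPM and 8.47 to 20.5 CPM, nearly all from Alas2. The 4 were the globin genes, without a read in any of the 12 libraries, so the sum is a level of Alas2 and does not measure blood content. The red blood cell sums and the endothelial sums did not overlap between the female groups. Among the endothelial genes, Clec4g and Bmp2 were lower in every KO female, while Stab2, Lyve1, Pecam1 and Kdr overlapped. Lyve1 was at 2.87 to 19.8 CPM in wild type and 15.4 to 31.7 CPM in KO females. In males, bile duct markers (5 genes) summed to 47.4 to 56.3 CPM in wild type and 27.8 to 36.2 CPM in KO mice, without overlap. Only Spp1 separated these groups by itself (22.2 to 38.2 CPM and 13.6 to 18.2 CPM), while Sox9, Krt7, Krt19 and Epcam overlapped. In whole liver a loss of cells of one type cannot be told apart from less RNA per cell, and the part of either in the results below was not tested.

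One library stood apart. For the wild type female 1091, 11 of the 38 tested genes lay more than 1 log2 unit from the mean of the other two wild type females, against 0 to 5 of 38 for the other 11 mice measured in the same way, and over all 9171 genes with a known transcript end the share was 22.4% against 3.67% to 8.01%. Etfa, a subunit of the electron transfer flavoprotein, showed it most clearly at 270.4, 355 and 45.5 CPM in mice 1089, 1090 and 1091. The deviation of mouse 1091 went with the GC content of the last 500 bases of the transcript (Pearson r = 0.555 across the 38 genes and 0.364 across the 9171 genes, with genes that share 1 library and are not replicates), whereas r across the 38 genes lay between -0.542 and 0.309 in the other mice. The lowest of these, -0.542 in mouse 1090, was measured against a mean that includes mouse 1091. What set this library apart was not tested, and the KO effects in females and the sex differences in wild type mice are given with and without it for each gene whose value is printed. In the other comparisons that use the wild type females, its removal is given where it moved a printed value by over 1.5 times.

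**Figure D1:**
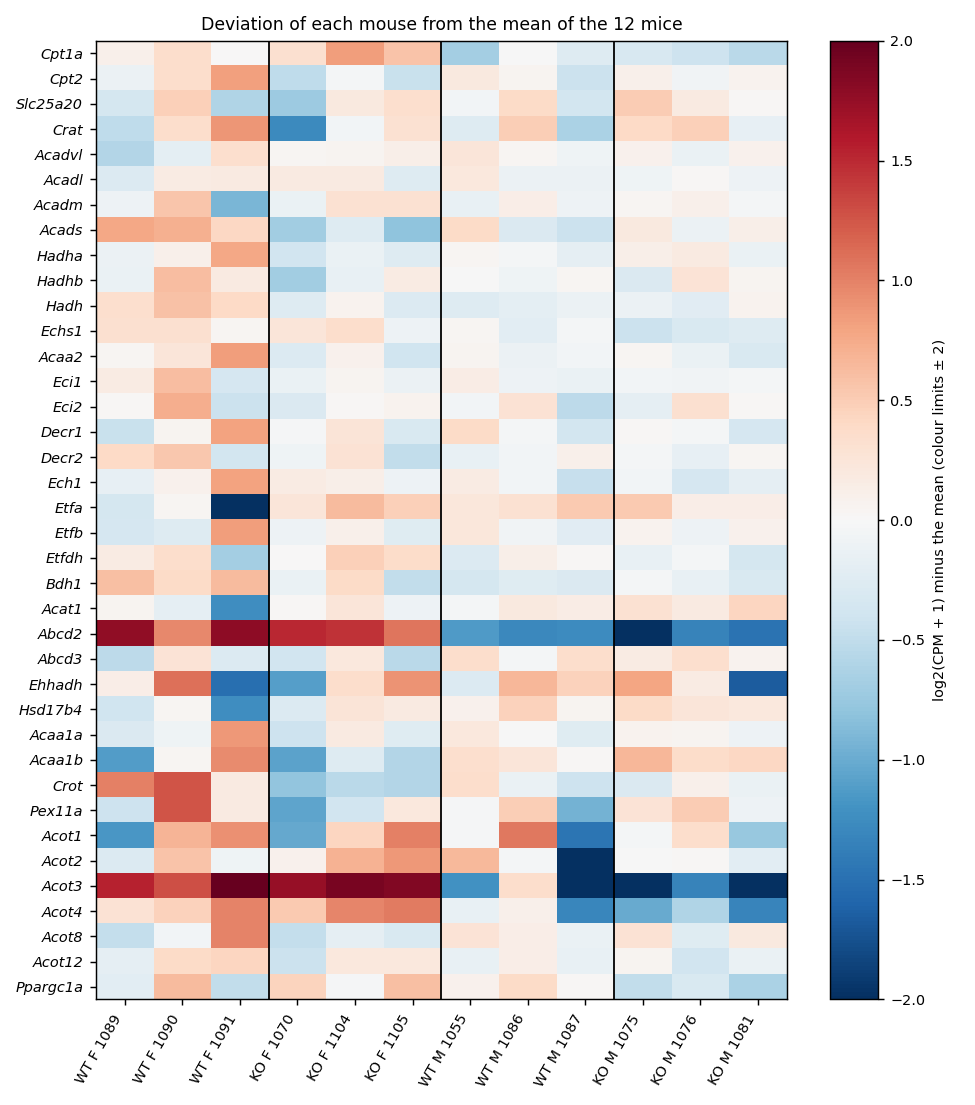
Each column is a mouse and each row one of the 38 tested genes, coloured by log2(CPM + 1) minus the mean of the 12 mice, with black lines between the groups. In the column of wild type female 1091 the colours of Etfa, Acat1, Ehhadh and Hsd17b4 run opposite to those of Etfb, Acaa2 and Decr1, and in the row of Abcd2 all 6 females are red and all 6 males blue.

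The levels spanned more than 3 orders of magnitude. In mean CPM over the 12 mice, 27 of the 40 genes lay above 100, 11 between 10 and 100, and 2 below 10. The peroxisomal thiolase Acaa1b had the highest mean level, 2360.2 CPM (997 to 4191 CPM across mice), followed by Abcd3, a peroxisomal half-transporter of fatty acyl-CoAs, at 1041 CPM (696 to 1293 CPM), and by Etfb, the second subunit of the electron transfer flavoprotein, at 923 CPM (711 to 1601 CPM). Acaa1b had the highest value of the 40 genes in each of the 12 mice, with part of its transcript end shared with Acaa1a, as described below. Abcd3 lay above Etfb in 8 of the 12, so the order of that pair is not fixed by these mice. At the low end of the tested genes stood the thioesterase Acot2 at 11.1 CPM and the carnitine acetyltransferase Crat at 19.9 CPM. Across the 12 mice the steadiest gene was Acadl, the long-chain acyl-CoA dehydrogenase, whose highest value was 1.41 times its lowest (294 to 414 CPM). Acot3, a peroxisomal thioesterase, was the most variable, its highest value being 62.2 times its lowest (1.55 to 96.2 CPM).

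**Figure D2:**
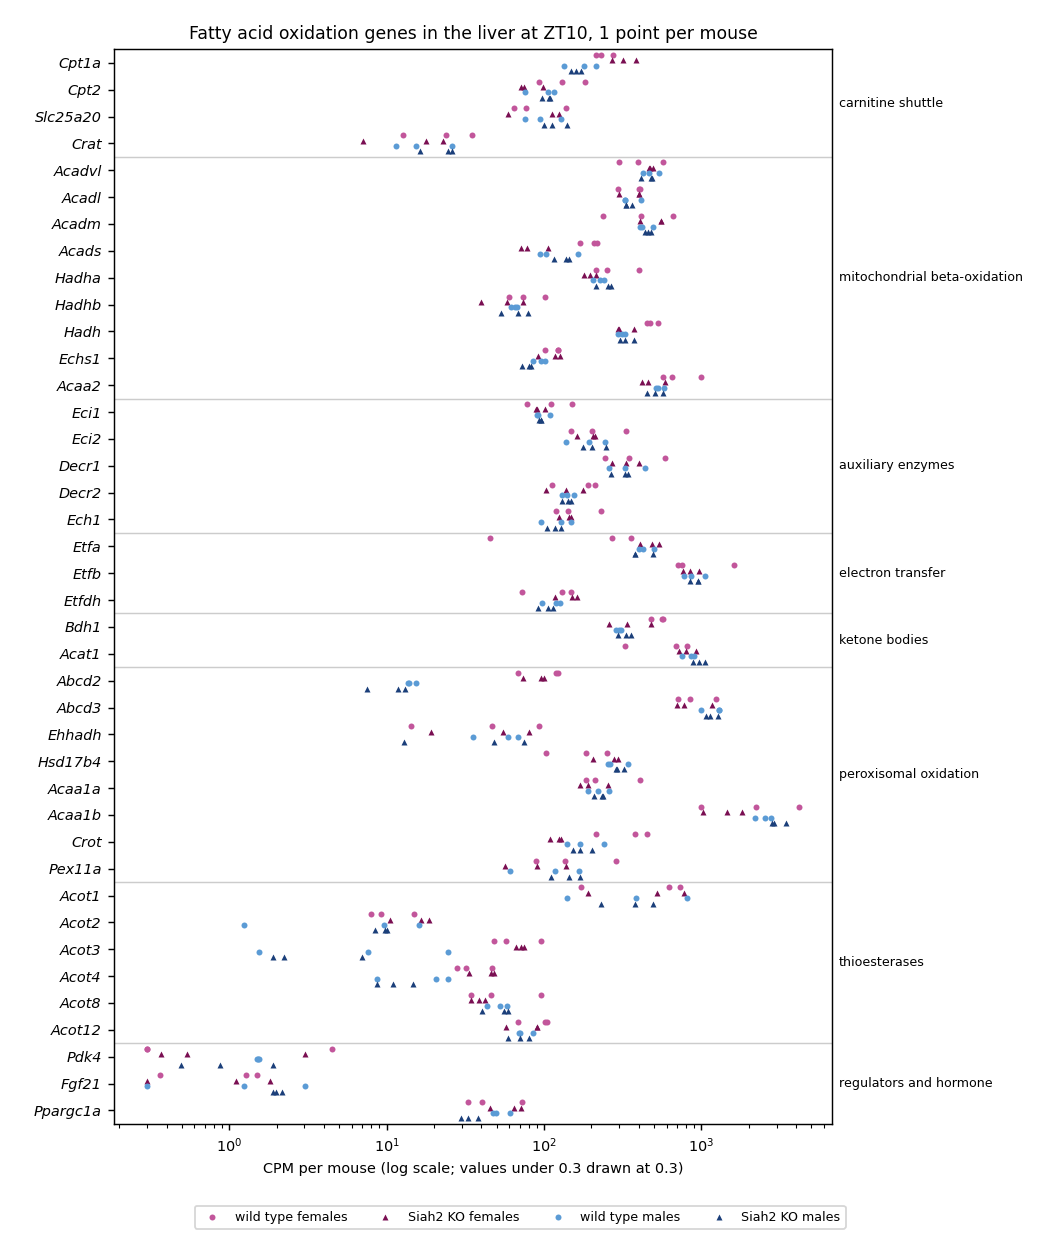
CPM of the 40 genes in each of the 12 mice on a log axis, grouped by role, with circles for wild type, triangles for Siah2 KO, pink shades for females and blue shades for males. Acaa1b lies furthest right and Pdk4 and Fgf21 furthest left, and the pink and blue symbols of Abcd2 and Acot3 do not mix.

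In females, none of the 38 genes was called for Siah2 KO against wild type by the quasi-likelihood test of edgeR, adjusted after Benjamini-Hochberg over all 9465 genes tested, in a comparison in which edgeR called 0% of all genes. The carnitine octanoyltransferase Crot and the short-chain acyl-CoA dehydrogenase Acads had the smallest p-values, and both were read at lower levels in all 3 KO females than in any wild type female. At an unadjusted p under 0.05 the test marked 4 of 38 genes, all lower in KO, which were Crot, Acads, Hadh and Cpt2, where 15.6% of all genes were marked. The share of these genes is no higher than that background. DESeq2 called 2 of the 38, again Crot and Acads, both lower, against 3.70% of all genes it tested. Of the 38 genes 26 had a log2 fold change below 0 (68.4%), against 52.7% of all genes tested, with a median of -0.24 against -0.03 over all genes. Leaving out mouse 1091, 22 of 38 were below 0 with a median of -0.10, and edgeR then called Crot and Acads, with 9.64% of all genes called.

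In males, no member was called either, with 0% of all genes called by edgeR and 0.0370% by DESeq2, which called none of the 40. A single gene, Ppargc1a, had an unadjusted p under 0.05, against 4.05% of all genes. The 38 genes split into 18 higher and 20 lower in KO males, with a median log2 fold change of -0.03 against -0.01 over all genes. With both sexes combined (6 KO against 6 wild type mice) again no member was called, where 0.0111% of all genes were, and Crot and Acads had an unadjusted p under 0.05, both lower, against 5.65% of all genes. The direct test of whether the KO effect differed between the sexes called no member at an adjusted p under 0.05 by edgeR, with 0.255% of all genes called. It marked 7 of 38 at an unadjusted p under 0.05, against 14.1% of all genes. DESeq2 called 2 of them, Acads and Crot, against 3.89% of all genes, and without mouse 1091 edgeR called the same 2 genes against 5.15% of all genes.

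**Figure D3:**
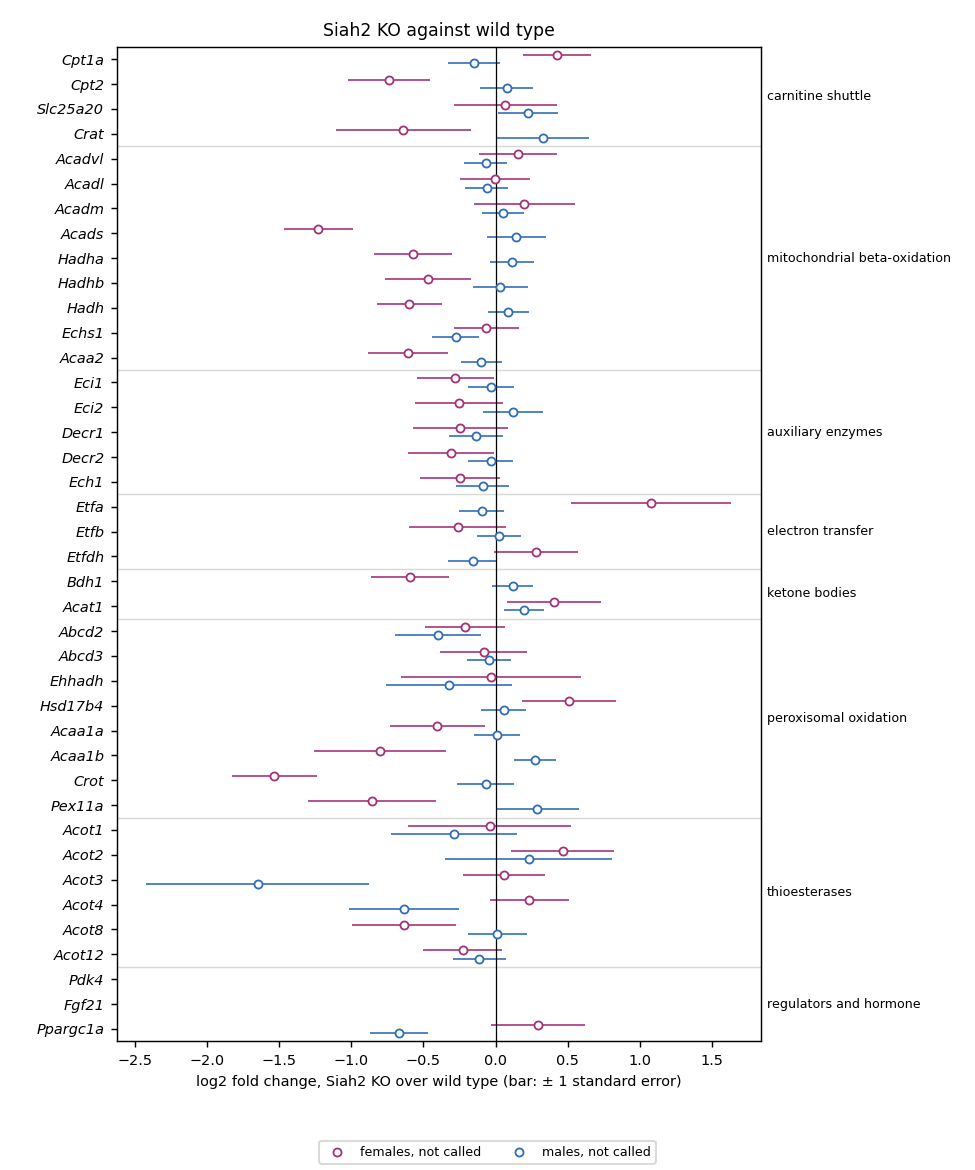
Log2 fold change of Siah2 KO over wild type for each tested gene, with females in pink and males in blue and bars of ± 1 standard error from edgeR. Open symbols mark genes that were not called, which here are all of them. Crot at -1.53 and Acads at -1.23 in females lie to the left of the others measured in that sex, while the male values for both sit near 0.

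Crot moves medium-chain products of peroxisomal oxidation onto carnitine so that they can leave for the mitochondria, and Acads carries out the first step of the spiral on the shortest chains. Both genes lie on mouse chromosome 5, far apart, in GRCm38.p6, the build of the RefSeq tables, which matches the mm10 named in the submitters' processing notes (Crot at 8966033 to 8997146 and Acads at 115110299 to 115119346, both on the minus strand). Values below are given in the order of mice 1089, 1090 and 1091 for wild type females, 1070, 1104 and 1105 for KO females, 1055, 1086 and 1087 for wild type males, and 1075, 1076 and 1081 for KO males. Log2 fold changes carry the standard error, and adjusted p-values are from the edgeR test, adjusted after Benjamini-Hochberg over all genes, unless DESeq2 is named.

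The window from 250 bases before to 50 after the RefSeq start is shown for both genes because they had the smallest p-values for the KO effect in females. Neither window holds AGGTCA, the half-site of PPARα and many other nuclear receptors, on either strand, nor the E-box CACGTG that clock factors can bind, so both are printed without capitals. The Crot window lies at chr5:8997097-8997396 and the Acads window at chr5:115119297-115119596 (GRCm38.p6, minus strand, 5′ to 3′).
Crot: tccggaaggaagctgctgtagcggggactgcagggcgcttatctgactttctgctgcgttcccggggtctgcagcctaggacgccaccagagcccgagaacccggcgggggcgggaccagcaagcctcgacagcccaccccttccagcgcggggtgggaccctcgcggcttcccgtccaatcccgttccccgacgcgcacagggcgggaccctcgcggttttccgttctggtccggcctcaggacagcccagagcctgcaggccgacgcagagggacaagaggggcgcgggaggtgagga
Acads: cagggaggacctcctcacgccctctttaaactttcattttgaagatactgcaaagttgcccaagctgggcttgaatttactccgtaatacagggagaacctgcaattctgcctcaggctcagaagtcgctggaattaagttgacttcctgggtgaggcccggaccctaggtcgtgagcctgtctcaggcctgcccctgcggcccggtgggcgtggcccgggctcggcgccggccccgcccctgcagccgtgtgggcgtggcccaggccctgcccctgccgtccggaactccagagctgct

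Crot was read at 376, 449 and 213 CPM in wild type females and at 109, 129 and 125 CPM in KO females. It was read at 239, 170.4 and 140.2 CPM in wild type males and at 153, 201 and 170.3 CPM in KO males. The KO females formed a tight group below every other mouse, and the wild type females a loose one, of which mouse 1091 lay within the range of the wild type males. The log2 fold change for KO was -1.53 ± 0.29 (adjusted p = 0.0851) in females and -0.07 ± 0.20 (adjusted p = 0.9999) in males. By DESeq2 it was -1.51 in females (DESeq2 adjusted p = 0.000276). The difference between these effects, females minus males, was -1.46 ± 0.37 (adjusted p = 0.101), with a 95% interval of -2.25 to -0.67. Leaving out mouse 1091 moved the female value to -1.77 (edgeR adjusted p = 0.00117) and the difference between the sexes to -1.70 (edgeR adjusted p = 0.00463), so that both passed the threshold. It was the only mouse whose removal did so, and across the 6 single removals among the females the value stayed between -1.77 and -1.31. With both sexes combined the value was -0.86 ± 0.27 (adjusted p = 0.866).

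Acads stood at 215, 208 and 169 CPM in the wild type females and 77.4, 106 and 71.6 CPM in KO females. In males the values were 164, 104 and 93.8 CPM without and 144, 116 and 138 CPM with the KO. Wild type females lay above KO females without overlap, and the male groups overlapped. In females the KO effect was -1.23 ± 0.24 (adjusted p = 0.0883), or -1.21 by DESeq2 (DESeq2 adjusted p = 0.00135), and in males the gene was at 0.14 ± 0.21 (adjusted p = 0.9999). The difference between the sexes in the KO effect was -1.36 ± 0.33 (adjusted p = 0.0867), with a 95% interval of -2.06 to -0.66. Without mouse 1091 the female value was -1.31 (edgeR adjusted p = 0.00495) and the difference -1.46 (edgeR adjusted p = 0.0138). Its value in mouse 1091 was the lowest of the 3 wild type females, as it was for Crot, so the removal raised the mean of the wild type group for both. With both sexes combined Acads was at -0.56 ± 0.24 (adjusted p = 0.866).

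**Figure D4:**
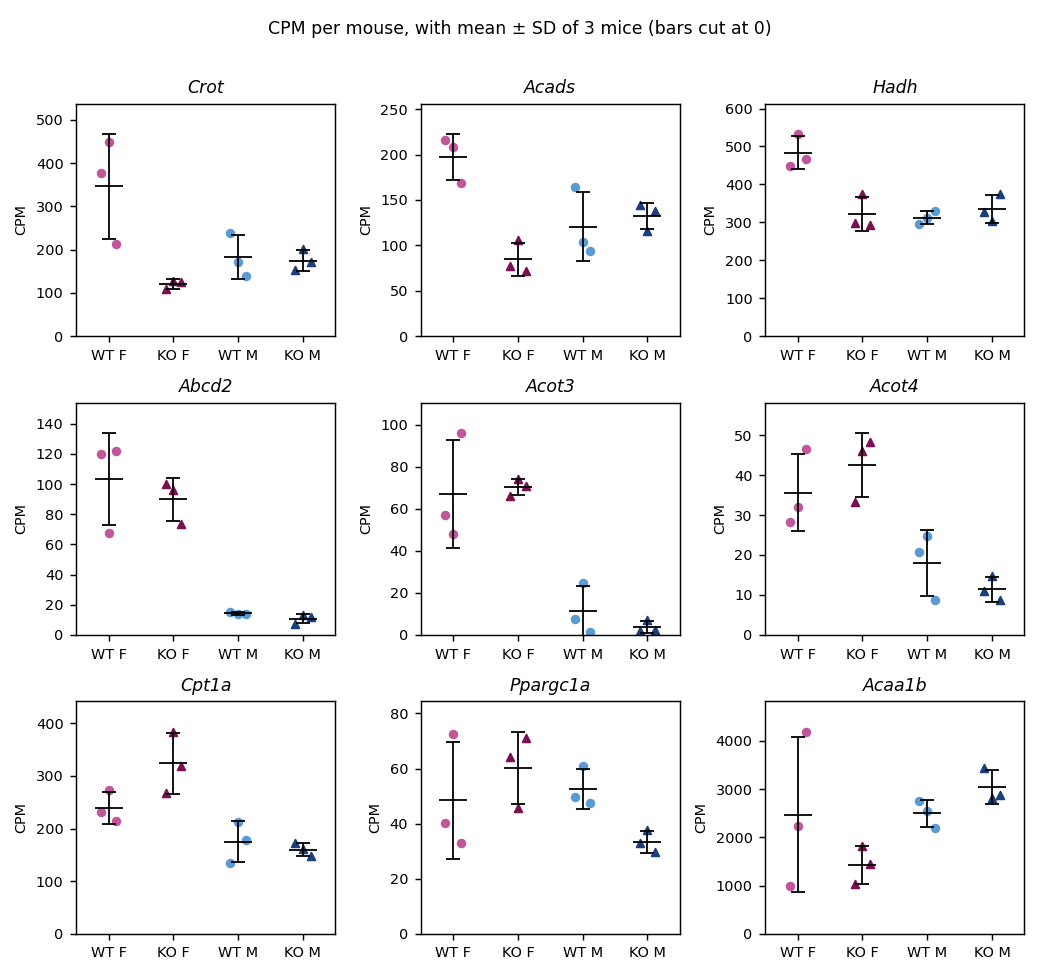
CPM of 9 genes in every mouse, with 1 point per mouse and the mean ± SD of 3 mice per group, from an axis that starts at 0 (WT F and KO F, wild type and KO females; WT M and KO M, the males). The KO females lie below the wild type females for Crot, Acads and Hadh, and the females lie above the males in both genotypes for Abcd2, Acot3 and Acot4.

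The other 7 enzymes of the mitochondrial spiral were not called in females or males. Hadh, which oxidises the hydroxyacyl intermediates of short and medium chains, was read at 449.8, 533 and 468 CPM in the wild type and 297, 375 and 294 CPM in the KO females, and at 297, 313 and 329 CPM and 328, 303 and 375 CPM in wild type and KO males. The KO females spanned the range of the males, and all wild type females lay above them. The KO effect in females was -0.60 ± 0.22 (adjusted p = 0.233) and the difference between the sexes -0.69 ± 0.26 (adjusted p = 0.223), neither past the threshold. Without mouse 1091 the female value was -0.61 (edgeR adjusted p = 0.0609), and DESeq2 then called Hadh lower in KO females (DESeq2 adjusted p = 0.0461). Hadha, the alpha subunit of the trifunctional protein of long chains, was at 215, 251 and 399 CPM in wild type and 179, 213 and 195 CPM in KO females, and at 240.1, 228 and 205 CPM and 254, 265 and 214 CPM in wild type and KO males. The highest of these was mouse 1091, and the nearest values of the female groups were 213 CPM in a KO and 215 CPM in a wild type mouse. Its KO effect was -0.57 ± 0.27 (adjusted p = 0.35) in females and 0.11 ± 0.15 (adjusted p = 0.9999) in males, with a difference between the sexes of -0.68 ± 0.31 (adjusted p = 0.342). In the females without mouse 1091 it was -0.25 (edgeR adjusted p = 0.399), and the difference between the sexes was then -0.36. With both sexes combined it was -0.24 ± 0.19 (adjusted p = 0.886), or -0.06 without that mouse.

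Acadm, the medium-chain acyl-CoA dehydrogenase, was at 415, 657 and 238 CPM in the wild type females, 409, 553 and 556 CPM in KO females, 406, 489.6 and 419 CPM in wild type males and 459, 478 and 435 CPM in KO males. The lowest and the highest of the 12 values were both wild type females, and the groups overlapped. Its KO effect was 0.20 ± 0.35 (adjusted p = 0.835) in females, 0.05 ± 0.14 (adjusted p = 0.9999) in males and 0.13 ± 0.20 (adjusted p = 0.939) with both sexes combined, and the difference between the sexes was 0.15 ± 0.39 (adjusted p = 0.917), with an interval of -0.68 to 0.98 that leaves changes of close to 1 log2 unit possible. Without mouse 1091 the sign turned in females (-0.09) and for the difference (-0.14), and the combined value was 0.0042. The very-long-chain dehydrogenase Acadvl (0.16 in females and -0.07 in males), Acadl (-0.0018 and -0.06), the trifunctional beta subunit Hadhb (-0.47 and 0.03), the short-chain enoyl-CoA hydratase Echs1 (-0.06 and -0.28) and the thiolase Acaa2 (-0.61 and -0.10) did not pass the test in either sex. The female values of these 5 without mouse 1091 were 0.45, 0.09, -0.51, -0.14 and -0.32 in the same order. As a group, 7 of the 9 spiral enzymes had a log2 fold change below 0 in KO females, with a median of -0.47, where 52.7% of all genes were below 0. With mouse 1091 left out the count was again 7 of 9, with a median of -0.25 and 50.5% of all genes below 0. In KO males it was 4 of 9, with a median of 0.03, against 51.9% of all genes. None of the 9 was called by edgeR in either sex.

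In the carnitine shuttle, Cpt1a, the rate-limiting acyltransferase of the outer membrane, was read at 231, 272 and 214 CPM in the wild type females and 268, 384 and 319.6 CPM in KO females. In males it was at 134, 213 and 179 CPM in wild type and 172, 161 and 148 CPM in KO. The female groups overlapped, the lowest KO female lying just under the highest wild type female, and all 6 males lay below all 6 females. The KO effect was 0.43 ± 0.23 (adjusted p = 0.422) in females, 0.36 there without mouse 1091, -0.15 ± 0.18 (adjusted p = 0.9999) in males and 0.21 ± 0.25 (adjusted p = 0.932) in both combined, with a difference between the sexes of 0.57 ± 0.30 (adjusted p = 0.411). Cpt2, its partner in the inner membrane, was at 93.5, 131 and 181 CPM and 71.2, 99.1 and 74.6 CPM in wild type and KO females, and at 116, 106 and 75.5 CPM and 109, 97.2 and 107 CPM in wild type and KO males. The wild type females spread from the level of the KO females upwards, with mouse 1091 highest. The KO effect on Cpt2 was -0.74 ± 0.28 (adjusted p = 0.243) in females, -0.46 without mouse 1091 (edgeR adjusted p = 0.209), 0.08 ± 0.18 (adjusted p = 0.9999) in males and -0.35 ± 0.21 (adjusted p = 0.869) in both combined. Its difference between the sexes was -0.81 ± 0.35 (adjusted p = 0.301). Without mouse 1091 the combined value was -0.17 and the difference -0.53. Cpt1a and Cpt2 pointed in opposite directions in females, without either passing the test. The carnitine-acylcarnitine carrier Slc25a20 was at 0.07 in females and 0.22 in males, and Crat at -0.64 and 0.33, with -0.14 and -0.28 in females without mouse 1091.

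Among the auxiliary enzymes, which handle double bonds that the spiral cannot, all 5 (Eci1, Eci2, Decr1, Decr2 and Ech1) had log2 fold changes between -0.31 and -0.24 in KO females and between -0.14 and 0.12 in KO males, and the smallest adjusted p was 0.675 in females. Their female values without mouse 1091 were -0.48, -0.48, 0.18, -0.52 and 0.10, so Decr1 and Ech1 changed sign. In the electron transfer chain that takes up the electrons of the dehydrogenases, the KO effect in females was 1.08 ± 0.56 (adjusted p = 0.392) for Etfa, -0.26 for Etfb and 0.28 for Etfdh, the membrane oxidoreductase. The value of Etfa depends on the wild type group that holds mouse 1091, and without that mouse it was 0.60 (edgeR adjusted p = 0.0784), where DESeq2 called it higher (DESeq2 adjusted p = 0.0491), with KO females at 409, 536 and 483 CPM above the remaining pair of wild type females. Etfb was at 711, 749.9 and 1601 CPM in wild type females, so the subunits of the same flavoprotein lay on opposite sides of the other wild type females in mouse 1091. Without that mouse Etfb was at 0.23 and Etfdh at 0.04.

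Ketone body metabolism was represented by Acat1, the mitochondrial acetoacetyl-CoA thiolase, and Bdh1, the dehydrogenase that interconverts acetoacetate and 3-hydroxybutyrate. Bdh1 was at 559, 477 and 569 CPM in the wild type females, 336, 477 and 259 CPM in KO females, 288, 309 and 301 CPM in wild type males and 356, 329.9 and 297 CPM in KO males. Wild type females lay above both groups of males, and the KO females spread from below the males to the level of the wild type females. Its KO effect in females was -0.59 ± 0.27 (adjusted p = 0.324), or -0.53 without mouse 1091, and the difference between the sexes was -0.71 ± 0.30 (adjusted p = 0.292). Acat1 was at 0.40 in KO females and 0.20 in KO males, neither past the test, with mouse 1091 at 328 CPM against 689.6 to 1050.1 CPM in the other 11 mice. Without it Acat1 was at 0.12 in females.

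Of the 8 peroxisomal genes, Crot was the one with the smallest p-value in females. In KO females 7 of 8 had a log2 fold change below 0 (median -0.31), against 52.7% of all genes. Without mouse 1091 it was 6 of 8 (median -0.15), against 50.5%. In KO males it was 4 of 8 (median -0.02), against 51.9%. These counts depend on the grouping, because some peroxisomal genes are counted with other roles. Of those, Acot3 and Acot4 were above 0 in KO females (0.06 and 0.23), and Acot8 and Decr2 below (-0.64 and -0.31). Ehhadh, the bifunctional enzyme and a classical PPARα target, was at 46.6, 92.7 and 14.3 CPM in the wild type females, 19.2, 54.5 and 80.1 CPM in KO females, 35.2, 67.9 and 58.8 CPM in wild type males and 74.6, 47.7 and 12.8 CPM in KO males. Values differed several-fold between mice of the same group, and its log2 fold changes were -0.03 ± 0.62 (adjusted p = 0.989) in females, -0.32 ± 0.44 (adjusted p = 0.9999) in males and -0.15 ± 0.43 (adjusted p = 0.966) in both combined, with a difference between the sexes of 0.26 ± 0.88 (adjusted p = 0.938). Without mouse 1091 these were -0.50 in females, -0.36 in both combined and -0.17 for the difference. The interval of the difference over all 12 mice, -1.61 to 2.12, shows how little 3 mice a group fix for this gene. The peroxisome proliferation factor Pex11a was at -0.85 ± 0.44 in females and 0.29 ± 0.29 in males, Hsd17b4, the other bifunctional enzyme, at 0.51 ± 0.33 and 0.06 ± 0.16, and Abcd3 at -0.08 ± 0.30 and -0.04 ± 0.15. In the females without mouse 1091 the values were -0.996 for Pex11a, 0.24 for Hsd17b4 and -0.13 for Abcd3. The thiolases Acaa1a (-0.41 ± 0.33 and 0.0099 ± 0.16) and Acaa1b (-0.80 ± 0.46 and 0.27 ± 0.15) share sequence: 42.1% of the windows of 50 bases in the last 500 bases of Acaa1a also occur in Acaa1b transcripts, and 38.8% the other way round, so the division of reads between them is uncertain. Without mouse 1091, whose Acaa1b level was the highest of the 12 mice, the female values were 0.05 for Acaa1a and -0.17 for Acaa1b (edgeR adjusted p = 0.778).

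The thioesterases free fatty acids from coenzyme A, and their genes Acot1, Acot2, Acot3 and Acot4 lie side by side on chromosome 12. Acot1, the cytosolic enzyme, was at 172, 621 and 726 CPM in the wild type females, 189.7, 518 and 780.1 CPM in KO females, 381, 807 and 140.2 CPM in wild type males and 377, 494 and 229 CPM in KO males. All 4 groups overlapped. Its KO effect was -0.04 ± 0.56 (adjusted p = 0.985) in females, -0.29 ± 0.44 (adjusted p = 0.9999) in males, -0.16 ± 0.42 (adjusted p = 0.964) in both combined and 0.24 ± 0.83 (adjusted p = 0.94) for the difference between the sexes. Without mouse 1091 it was 0.32 in females, 0.02 in both combined and 0.60 for the difference. Of the windows in the last 500 bases of Acot1, 12.9% also occur in Acot2, while none from the ends of Acot2, Acot3 and Acot4 occurs in the transcripts of another gene. In KO females the other 5 thioesterases lay between -0.64 (Acot8) and 0.46 (Acot2), and in KO males between -1.65 (Acot3) and 0.23 (Acot2), none of them called. In mouse 1091 Acot8 was at 96.2 CPM against 34.3 and 46.2 CPM in the other wild type females, and without it the female values were -0.08 for Acot8, -0.12 for Acot12, 0.36 for Acot2, 0.42 for Acot3 and 0.48 for Acot4. The male value of Acot3 had a standard error of 0.77, with the wild type males at 7.65, 24.6 and 1.55 CPM.

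Ppargc1a encodes the coactivator PGC-1α, which drives this pathway together with PPARα. It was at 49.7, 60.8 and 47.3 CPM in wild type males and 32.8, 37.8 and 29.8 CPM in KO males, and at 40.1, 72.6 and 32.8 CPM and 64.1, 45.7 and 71 CPM in wild type and KO females. In males the KO values all lay below the wild type values, and in females the groups overlapped. The KO effect was -0.67 ± 0.20 (adjusted p = 0.9999) in males, with an unadjusted p of 0.00505 that did not survive adjustment over 8823 genes, 0.30 ± 0.33 (adjusted p = 0.721) in females and -0.12 ± 0.24 (adjusted p = 0.95) in both combined. Without mouse 1091 it was 0.08 in females and -0.22 in both. Its difference between the sexes, 0.96 ± 0.39 (adjusted p = 0.27), had the opposite sign to that of Crot and Acads. Pdk4, the kinase that shuts pyruvate out of oxidation, and Fgf21, the fasting hormone of the liver, were barely read. Pdk4 had between 0 and 15 reads per library and Fgf21 between 0 and 8, where 3 reads corresponded to 0.739 to 2.29 CPM. Wild type female 1090 held the 15 reads of Pdk4, and no other library had more than 5. Differences between groups were not detectable at this depth for either gene.

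Females and males were then compared within each genotype. In wild type mice, edgeR called 1 of the 38 genes, Abcd2, higher in females, against 1.39% of all genes. At an unadjusted p under 0.05 it marked 7, all higher in females (Abcd2, Bdh1, Acot3, Crot, Hadh, Acads and Acot4), against 15.2% of all genes. Over the list, 30 of 38 genes had a value above 0 in females and 8 below (21.1%), where 45.3% of all genes lay below 0. The median was 0.30 against 0.05 over all genes. Without mouse 1091, 26 of 38 lay above 0 with a median of 0.19. DESeq2 called 3 of them (Abcd2, Acot3 and Bdh1) against 3.74% of all genes, and edgeR without mouse 1091 called 4 (Abcd2, Bdh1, Hadh and Crot) against 7.73%. In Siah2 KO mice, edgeR called 8 of the 38, against 11.5% of all genes. Of these, 5 were higher in females (Acot3, Abcd2, Acot4, Cpt1a and Ppargc1a) where 5.69% of all genes were, and 3 were lower (Acaa1b, Acads and Crot) where 5.78% of all genes were. DESeq2 called the same 8, against 8.40% of all genes. When the spread was estimated from all 12 mice at once, Acot3, Abcd2, Acot4 and Cpt1a were still called and Acaa1b, Ppargc1a, Acads and Crot were not. At an unadjusted p under 0.05 edgeR marked 13 of 38, against 26.1%. The 38 genes divided evenly in KO mice, 19 above and 19 below 0, with a median of -0.00015, so there was no common direction. Summed marker lists of several cell types also differed with sex, although the genes of a list did not all do so. In KO mice hepatocyte markers summed to 54425.7 to 72127.9 CPM in females and 42849.5 to 51668.4 CPM in males, endothelial markers to 229 to 243 CPM and 186 to 214 CPM, Kupffer and immune markers to 402 to 951 CPM and 115 to 260.1 CPM, and red blood cell markers to 8.47 to 20.5 CPM and 103 to 154 CPM, in each case without overlap. In wild type mice hepatocyte markers (60020.6 to 86389.7 CPM in females and 48879.3 to 59317.8 CPM in males), endothelial markers (263 to 330 CPM and 192 to 240.3 CPM), red blood cell markers (20.7 to 25.5 CPM and 84.4 to 105 CPM) and bile duct markers (9.87 to 45.1 CPM and 47.4 to 56.3 CPM) did not overlap either. None of the bile duct genes separated wild type females from wild type males by itself. Each red blood cell sum was nearly all Alas2, with the globin genes of the list at 0 in all 12 mice, so it does not measure blood content. In KO mice, Alb, Ahsg and Fgb were higher in every female than in any male. Alb was at 17066 to 22021.4 CPM in KO females and 12601.5 to 13233.6 CPM in KO males. Apoa1 was lower in every KO female (1914.82 to 2971.67 CPM) than in any KO male (2975.76 to 4038.4 CPM), and Apoa2, Ttr and Serpina1a overlapped. Between wild type females and males only Ahsg did not overlap, and Alb, Apoa1, Apoa2, Ttr, Serpina1a and Fgb did. Mouse 1091 held the highest hepatocyte and endothelial sums of the wild type females. Its Ahsg level was 27444.6 CPM, against 10555.6 and 10006.9 CPM in mice 1089 and 1090 and 5735.02 to 8127.24 CPM in wild type males. The part of these marker differences in the sex differences was not tested.

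**Figure D5:**
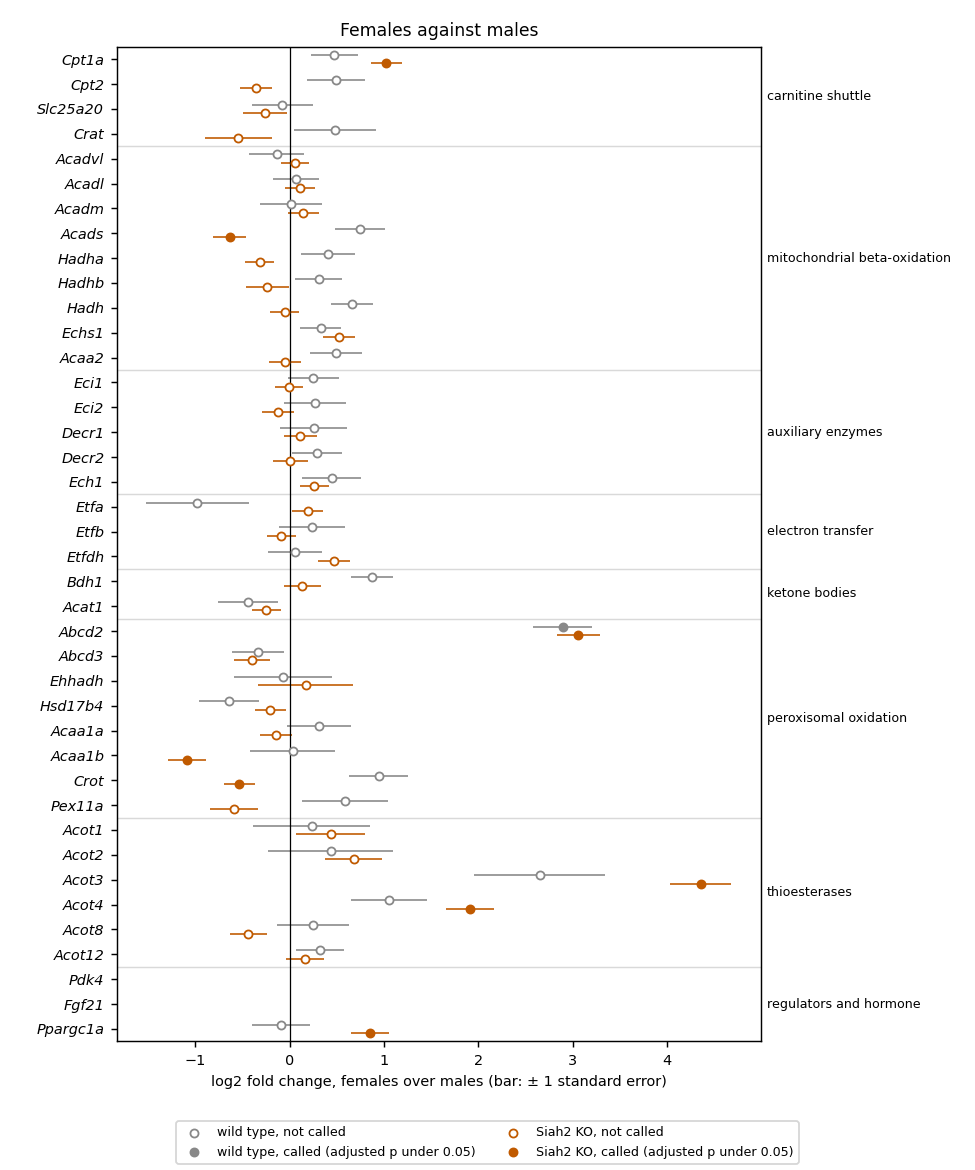
Log2 fold change of females over males for each tested gene, with wild type mice in grey and Siah2 KO mice in orange and bars of ± 1 standard error from edgeR. Filled symbols mark genes called at an adjusted p under 0.05, which are 1 in wild type and 8 in KO mice. Crot and Acads lie right of 0 in wild type and left of 0 in KO mice.

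Abcd2, a peroxisomal half-transporter of very-long-chain acyl-CoAs, was read at 119.8, 67.8 and 122 CPM in the wild type females and 100.1, 95.7 and 73.4 CPM in KO females, against 15.3, 13.6 and 13.9 CPM in wild type males and 7.54, 13 and 11.8 CPM in KO males. Every female lay above every male. The value for females over males was 2.90 ± 0.31 (adjusted p = 0.00126) in wild type and 3.06 ± 0.23 (adjusted p = 4e-07) in KO mice, called in each of the 6 fits that left out 1 mouse in both genotypes, with 2.72 in wild type mice without mouse 1091. The KO effect was -0.21 in females, -0.05 there without mouse 1091, and -0.40 in males, and neither sex passed the test.

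Acot3 was at 57, 48 and 96.2 CPM in the wild type females and 66.3, 74 and 71 CPM in KO females, against 1.88, 6.94 and 2.22 CPM in KO males and the wild type males given above. All females lay above all males. It stood at 4.36 ± 0.32 (adjusted p = 4e-07) in KO mice and at 2.65 ± 0.70 (adjusted p = 0.105) in wild type mice, where DESeq2 called it (DESeq2 adjusted p = 0.00312). Its neighbour Acot4, another peroxisomal thioesterase, was at 28.2, 32.1 and 46.5 CPM and 33.3, 46 and 48.2 CPM in wild type and KO females, and at 20.6, 24.6 and 8.67 CPM and 10.9, 14.8 and 8.63 CPM in wild type and KO males. Females again lay above males in both genotypes, at 1.91 ± 0.25 (adjusted p = 0.000189) in KO mice and 1.06 ± 0.40 (adjusted p = 0.245) in wild type mice. The cytosolic Acot1 of the same cluster was at 0.44 ± 0.37 (adjusted p = 0.502) and 0.23 ± 0.62 (adjusted p = 0.898), and Acot2 at 0.68 ± 0.30 (adjusted p = 0.166) and 0.44 ± 0.66 (adjusted p = 0.809). The female excess was called for the neighbours Acot3 and Acot4, and the difference of these from Acot1 and Acot2 was not tested. With mouse 1091 left out, the wild type values were 2.29 for Acot3, 0.81 for Acot4, -0.16 for Acot1 and 0.58 for Acot2. DESeq2 without that mouse did not call Acot3 in wild type mice (DESeq2 adjusted p = 0.262).

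Cpt1a was higher in KO females than in KO males at 1.02 ± 0.16 (adjusted p = 0.00105), called in each of the 6 fits that left out 1 mouse. In wild type mice it was 0.47 ± 0.25 (adjusted p = 0.405), with every wild type female above every wild type male, and 0.52 without mouse 1091. Ppargc1a was higher in KO females at 0.85 ± 0.20 (adjusted p = 0.0153), and was -0.09 ± 0.31 (adjusted p = 0.923) in wild type mice, or 0.11 without mouse 1091. Its call in KO mice was made in 3 of the 6 fits without 1 mouse. Acaa1b was lower in KO females than in KO males, at -1.08 ± 0.20 (adjusted p = 0.00258), with 1027, 1813 and 1448 CPM against 3437, 2808 and 2878 CPM and no overlap. In wild type mice it was at 997, 2226 and 4191 CPM in females and 2748, 2550.1 and 2198 CPM in males, with a fold of 0.03 ± 0.45 (adjusted p = 0.983). The wild type females bracketed the males, with mouse 1091 highest, and without that mouse the fold was -0.63 (edgeR adjusted p = 0.204).

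Crot and Acads had sex differences of opposite sign in the genotypes. Crot was 0.94 ± 0.32 (adjusted p = 0.192) for females over males in wild type mice and -0.53 ± 0.16 (adjusted p = 0.0446) in KO mice, and Acads 0.75 ± 0.27 (adjusted p = 0.222) and -0.63 ± 0.18 (adjusted p = 0.0323). The call in KO mice held in 1 of the 6 fits without 1 mouse for Crot and in 2 of 6 for Acads, with adjusted p up to 0.168 and 0.13. The test of the change in the sex difference between genotypes is the same as that of the KO effect between sexes given above, with the adjusted p of 0.101 for Crot and 0.0867 for Acads. For females over males in wild type mice, Bdh1 and Hadh were at 0.87 ± 0.23 (adjusted p = 0.103) and 0.66 ± 0.22 (adjusted p = 0.192), and stood at 0.13 ± 0.19 (adjusted p = 0.715) and -0.05 ± 0.16 (adjusted p = 0.873) in KO mice. Without mouse 1091 the wild type values were 1.18 for Crot, 0.83 for Acads, 0.80 for Bdh1 and 0.65 for Hadh, and edgeR called Crot, Bdh1 and Hadh.

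Cpt2, Hadha, Acadm and Ehhadh did not pass the test for sex in either genotype. Cpt2 was at 0.49 ± 0.30 (adjusted p = 0.48) in wild type and -0.35 ± 0.17 (adjusted p = 0.206) in KO mice, and Hadha at 0.41 ± 0.29 (adjusted p = 0.544) and -0.31 ± 0.15 (adjusted p = 0.207). Acadm was at 0.01 ± 0.33 (adjusted p = 0.991) and 0.15 ± 0.16 (adjusted p = 0.608), and Ehhadh at -0.07 ± 0.52 (adjusted p = 0.968) and 0.17 ± 0.50 (adjusted p = 0.871). Their wild type values without mouse 1091 were 0.19 for Cpt2, 0.06 for Hadha, 0.29 for Acadm and 0.36 for Ehhadh. Echs1 was read at 117, 126 and 92.1 CPM in KO females and 72.8, 79.9 and 82.1 CPM in KO males, and Etfdh at 117, 163 and 150.5 CPM and 105, 114 and 91.7 CPM. Neither pair of groups overlapped, and the values of 0.53 ± 0.17 (adjusted p = 0.053) and 0.48 ± 0.17 (adjusted p = 0.0843) lay just outside the threshold, with 0.33 ± 0.22 (adjusted p = 0.512) and 0.06 ± 0.28 (adjusted p = 0.951) in wild type mice, or 0.39 and 0.29 without mouse 1091. The remaining genes with an unadjusted p under 0.05 in KO mice were Pex11a at -0.59 ± 0.26 (adjusted p = 0.161), Acot2 and Acot8 at -0.43 ± 0.20 (adjusted p = 0.172).

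The RefSeq promoter table held 37 windows of 300 bases for 34 of the 40 genes, Crat, Acaa2, Decr1, Acat1, Abcd2 and Hsd17b4 having none. AGGTCA was found on either strand in the windows of 7 of the 34 genes (20.6%), namely Acadm, Acadvl, Acot12, Acot3, Acot4, Cpt1a and Echs1. By window, this was 21.6% against 16.3% of all 32851 windows in the table. The direct repeat of this half-site with 1 base between the copies, the textbook response element of PPARα with RXR, was in none of the 37 windows and in 0.0396% of all. CACGTG was in the windows of 2 of the genes, Acot4 and Fgf21 (5.41% of the windows against 7.15% of all). These are matches of letters in a short window, and elements further away were not searched. The windows of Cpt1a, Acot3 and Acot4 are shown because these genes were called higher in KO females than in KO males and each holds AGGTCA, which with CACGTG is in capitals on whichever strand it was found. Acot3 has 2 windows in the table and the first listed is shown. They lie at chr19:3323051-3323350, chr12:84051894-84052193 and chr12:84038129-84038428 (GRCm38.p6, plus strand, 5′ to 3′).
Cpt1a: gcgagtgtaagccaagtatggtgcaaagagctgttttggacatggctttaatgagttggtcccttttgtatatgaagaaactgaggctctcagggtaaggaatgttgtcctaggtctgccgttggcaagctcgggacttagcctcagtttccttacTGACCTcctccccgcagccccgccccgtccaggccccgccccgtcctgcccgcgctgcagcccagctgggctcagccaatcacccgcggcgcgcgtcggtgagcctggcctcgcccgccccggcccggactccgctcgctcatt
Acot3: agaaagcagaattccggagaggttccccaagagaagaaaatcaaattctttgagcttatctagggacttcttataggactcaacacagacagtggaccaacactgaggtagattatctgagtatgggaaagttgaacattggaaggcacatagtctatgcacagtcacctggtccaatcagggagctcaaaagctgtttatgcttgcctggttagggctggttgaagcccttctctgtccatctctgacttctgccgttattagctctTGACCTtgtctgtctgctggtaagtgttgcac
Acot4: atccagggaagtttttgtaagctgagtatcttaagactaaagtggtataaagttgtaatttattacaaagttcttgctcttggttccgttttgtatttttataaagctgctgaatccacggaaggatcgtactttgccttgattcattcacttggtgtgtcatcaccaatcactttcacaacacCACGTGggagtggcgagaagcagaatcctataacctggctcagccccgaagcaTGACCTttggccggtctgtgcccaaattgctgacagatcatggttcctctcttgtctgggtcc
The half-site begins 94 bases before the start in Cpt1a, 13 bases before it in Acot4 and 18 bases after it in Acot3, and the E-box of Acot4 begins 66 bases before the start. The start here is the one the window was built on. The annotated genes Cpt1a and Acot4 begin further upstream, at 3322326 and 84037254, so their printed windows lie inside the gene. Abcd2, called higher in females in both genotypes, had no window in the table. Ppargc1a, also called higher in KO females than in KO males, had a window with neither AGGTCA nor CACGTG.

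A further 45 genes of fatty acid oxidation and its control that are not among the 40 were listed for context, and 40 of them were tested. None was called by edgeR for KO against wild type in females, in males, in both combined or for the difference between the sexes, and none between wild type females and males. DESeq2 called Pcca, a subunit of propionyl-CoA carboxylase, higher in KO than in wild type females, against 3.70% of all genes. It called Pcca and Scp2 for the difference between the sexes (3.89% of all genes). Nudt7 and Scp2 were called lower in wild type females than in wild type males (3.74% of all genes). Between KO females and KO males edgeR called 7 of the 40, against 11.5% of all genes, with 3 higher in females (5.69% of all genes) and 4 lower (5.78%), and DESeq2 called 9, against 8.40% of all genes. The smallest p-values were those of Nudt7, a peroxisomal hydrolase of coenzyme A, at 127 ± 35.6 CPM (SD, n = 3) in KO females and 542 ± 53.6 CPM (SD, n = 3) in KO males, of Scp2, the peroxisomal sterol carrier and thiolase, at 579 ± 57.2 CPM against 1619.7 ± 70.8 CPM, and of Hacl1, which shortens branched chains after alpha-oxidation, at 205 ± 21.0 CPM against 109 ± 9.93 CPM. Their log2 fold changes by edgeR were -2.10 ± 0.20 (adjusted p = 6.86e-06), -1.48 ± 0.15 (adjusted p = 1.56e-05) and 0.91 ± 0.15 (adjusted p = 0.00142). Peroxisomal genes lay on both sides of the sex difference in KO mice, with Abcd2, Acot3, Acot4 and Hacl1 higher in females and Acaa1b, Crot, Nudt7 and Scp2 lower.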

How the data were processed

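Liver RNA of 12 mice was read with Lexogen QuantSeq 3′ libraries, 1 table per sex. The authors deposited raw counts per gene symbol. Per the study's methods, reads were trimmed, mapped and counted on Illumina BaseSpace, and the submitters' processing notes name STAR, DESeq and mm10. Their versions and counting settings were not given in the sources used here. Columns were matched to mice by name. The 40 genes and the lists were chosen with earlier results of these data known. Counts were joined by symbol (23420 rows) and tested with edgeR 4.0.16 (filterByExpr, TMM, quasi-likelihood test, two-sided, Benjamini-Hochberg over all genes tested, threshold 0.05) in R 4.3.3, with DESeq2 1.42.0 and limma 3.58.1 as alternatives. The comparisons within a sex or genotype used 6 mice, the others 12. CPM were taken from a TMM scaling of the 12 libraries. With 1293688 to 4056144 reads, 3 reads were worth 0.739 to 2.29 CPM, for counting error only. The scripts were tested on simulated counts.

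Named with full values were Cpt1a, Cpt2, Acadm, Hadha, Ehhadh, Pdk4, Fgf21, Ppargc1a, Acot1 and Crot, and in each comparison up to 10 members with the smallest unadjusted p under 0.05. Ribosomal Rn45s took 5.68% to 17.9% of reads, and symbols turned into dates (27) took 0.228% to 0.272%; the latter cannot be read as genes but stayed in the library sizes. Hepatocyte and other marker lists were summed. Red blood cell markers summed to 8.47 to 25.5 CPM in females and 84.4 to 154 CPM in males, with 4 of 6 at 0 and nearly all of the sum from Alas2. Stellate markers summed to 138 to 370 CPM (6 genes), bile duct markers to 9.87 to 56.3 CPM (5 genes), fat markers to 47.4 to 119 CPM (5 genes, nearly all of it Fabp4), pancreatic acinar markers to 12.6 to 57.4 CPM (7 genes) and muscle markers to 0 to 2.17 CPM (5 genes). Where it is unknown whether samples are single animals, p-values measure the spread between these samples. Positions and promoters are from RefSeq (GRCm38.p6), and transcript ends from GENCODE M1 sequences without their coordinates. Alternatives were DESeq2, limma-voom with and without library weights, RLE scaling, other filters, a joint fit of the 12 mice, sex as a term where both sexes were combined, and leaving out each mouse in turn.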

Additional observations from a re-analysis of the deposited data

How the results depend on the processing

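Some of the calls above turn on the tool, on the filter for low counts or on a single library, and the cause was not tested. The settings tested different numbers of genes, so each count of members is to be read against the genes called in the same setting. In KO against wild type females edgeR called 0 of 9465 genes and none of the 38 members tested. DESeq2 called 303 genes (3.70% of all genes it tested) and 2 members. Limma-voom with library weights called 1058 of the 9465 genes and 2 of the 38 members. No filter beyond 1 count gave 484 genes and 3 members, and the fit of all 12 mice in 4 groups 427 and 2. DESeq2 without wild type female 1091 called 786 genes and 4 members. With 1 mouse left out, edgeR called 0 to 936 genes and 0 to 2 of the 40. The upper value in both was that without mouse 1091 (9.64% of all genes). In males DESeq2 called 6 genes and no filter beyond 1 count 29, with 0 to 3 genes when 1 mouse was left out, and none of the 40 in any of these. With both sexes combined, where edgeR called 1 gene, limma-voom with and without weights called 0, as few as 0 and as many as 1 were called with a mouse left out, and none of the 40 was called in any of the settings run. For the difference between the sexes edgeR called 25 genes (0.255%) and none of the 40, and DESeq2 264 (3.89%) and 2. Limma-voom with library weights called 558 of 9806 genes and 2 members, and no filter beyond 1 count gave 325 and 5. DESeq2 without mouse 1091 called 622 and 3. Leaving out single mice gave 0 to 522 genes and 0 to 2 of the 40, again highest without mouse 1091 (5.15% of all genes).

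Between wild type females and males edgeR called 130 genes (1.39%) and 1 of the 40, and DESeq2 338 (3.74%) and 3. Limma-voom with library weights called 802 of 9335 genes and 6 members, and no filter beyond 1 count gave 536 and 4. At least 10 counts in every library gave 50 genes. The fit of all 12 mice called 505 and 3, and DESeq2 without mouse 1091 called 739 and 5. Single removals gave 43 to 740 genes and 1 to 4 of the 40. They were 740 (7.73%) and 4 without wild type female 1091, and 2 of the 40 without wild type male 1086. Without wild type males 1087 and 1055 there were 43 and 45 genes. Between KO females and males edgeR called 1044 genes (11.5%) and 8 of the 40, and the fit of all 12 mice 352 and 4. Single removals gave 486 to 1056 genes and 5 to 8 of the 40. There were 5 of the 40 without KO male 1081 (486 genes) or KO female 1070 (552 genes), and 562 genes without KO female 1104.

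Genes with small differences changed sign, none of them past the threshold. In KO against wild type females, the log2 fold change of Ehhadh was 0.0013 by DESeq2 and 0.0569 by limma-voom, that of Acot1 0.0043 by limma-voom, 0.3689 with library weights and 0.3119 by DESeq2 without mouse 1091, and that of Acadm -0.0821 by the last. Acot1 was at 0.0059 in males by limma-voom, at 0.103 in both sexes combined with library weights, and at -0.0052 for the difference between the sexes by limma-voom. For that difference Acadm was at -0.0125 with library weights and at -0.1377 by DESeq2 without mouse 1091, and Ehhadh at -0.1762 by the latter. Between wild type females and males Acadm was at -0.0231 by DESeq2, -0.0891 by limma-voom, -0.0136 with RLE scaling and -0.0051 in the fit of all 12 mice, Ehhadh at 0.1103 with library weights and 0.3424 by DESeq2 without mouse 1091, Acot1 at -0.097 and -0.1728, and Ppargc1a at 0.0861 by the latter. With single mice left out, the KO effect in females ranged from -0.0853 to 0.6132 for Acadm, -0.4951 to 0.7182 for Ehhadh and -0.5573 to 0.3478 for Acot1. In males the ranges were -0.294 to 0.0332 for Cpt1a, -0.0879 to 0.2084 for Cpt2, -0.9028 to 0.164 for Ehhadh, -0.7079 to 0.526 for Acot1 and -0.2237 to 0.1708 for Crot. In both combined they were -0.3589 to 0.0822 for Ehhadh, -0.268 to 0.0043 for Ppargc1a and -0.3948 to 0.0414 for Acot1, and for the difference between the sexes -0.1362 to 0.5384 for Acadm, -0.2049 to 0.9972 for Ehhadh and -0.5808 to 0.6277 for Acot1. For females over males they were, in wild type, -0.3847 to 0.2942 for Acadm, -0.8087 to 0.356 for Ehhadh, -0.4833 to 0.1092 for Ppargc1a and -0.2365 to 1.0075 for Acot1, and in KO mice -0.3067 to 0.7747 for Ehhadh and -0.0543 to 0.8295 for Acot1.

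The called genes Abcd2, Acot3, Acot4 and Cpt1a in KO mice and Abcd2 in wild type mice kept their direction and their call under each alternative run, except that Acot3 fell below the filter of at least 10 counts in every library and had no value there. Reads per library limit what can be said of Pdk4 and Fgf21, and 3 mice a group limit the rest. Mouse numbers differ between groups. No paired analysis was possible because the groups share no replicate numbers.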
